A study of Homo sapiens with 9 samples.

Results

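SR proteins, hnRNPs and the splicing regulators that act with them form a set of 47 genes, out of the 27860 genes for which FPKM (fragment counts scaled by transcript length and by the size of the library, so a level per unit of transcript length) could be summed. The members were taken by name: 13 SR proteins and TRA2 proteins, 8 hnRNPs of the A/B, C and D types, 12 other hnRNPs, 3 polypyrimidine tract-binding proteins, 5 splice-site recognition and SR-related proteins, 5 tissue-regulated factors and the kinase CLK1. For each gene, FPKM was summed over its RefSeq accessions, 332 in all, of which 35 were noncoding (NR_) and the others coding (NM_).

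The cells were DU145, a human prostate cancer line. They expressed a scrambled shRNA or either of 2 shRNAs against FZD6, a Wnt receptor, with 3 libraries per group and no other treatment, and the question was how the transcriptome differs once FZD6 is knocked down. The study's methods describe pLKO.1 as the lentiviral vector for constitutive shRNA expression, so each group is a population of infected cells, and nothing in the sources says whether its 3 libraries came from separate infections. P-values therefore measure the spread between these libraries, which may be technical.

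SR proteins bind exonic enhancers through RNA recognition motifs and recruit the splicing machinery through a domain rich in arginine and serine. Many hnRNPs oppose them by coating pre-mRNA and masking splice sites, and the balance between both families sets which exons a cell keeps. Most of these genes also control their own level: an excess of the protein promotes inclusion of a so-called poison exon, which carries an early stop codon and sends the transcript to nonsense-mediated decay, or promotes splicing in the 3′ UTR with the same outcome. CLK and SRPK kinases phosphorylate SR proteins and set where in the nucleus they reside.

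The poison exons of SRSF3 and SRSF6 are shown because the tables hold the transcripts that carry them as separate noncoding accessions. Each has its own FPKM estimate beside the coding transcript, though not a count of reads over the poison exon. The sequences come from the GENCODE v29 transcripts on GRCh38, run from the first base of the exon through the stop codon of the annotated reading frame, and have that stop codon in capitals. SRSF3 exon 4 of 7 spans 456 bases on the plus strand, of which the first 34, chr6:36599821-36599854, are printed. SRSF6 exon 3 of 7 spans 268 bases on the plus strand, of which the first 152, chr20:43459153-43459304, are printed.
SRSF3 (in NR_036610): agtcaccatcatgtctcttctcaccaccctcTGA
SRSF6 (in NR_034009): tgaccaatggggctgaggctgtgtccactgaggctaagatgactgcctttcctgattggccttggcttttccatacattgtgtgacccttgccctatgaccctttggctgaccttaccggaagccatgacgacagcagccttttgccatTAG
Both exons are absent from the coding transcripts paired with NM_003017 (SRSF3) and NM_006275 (SRSF6). The stop codon lies after 31 bases of the SRSF3 exon and after 149 bases of the SRSF6 exon.

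FZD6 itself fell in every knockdown library. It was at 20.9, 20.5 and 20.0 FPKM in scramble, 9.47, 10.2 and 9.80 in shRNA1 and 7.84, 8.79 and 7.69 in shRNA2, a mean 56.3% lower with knockdown (p = 0.0119, an exact two-sided permutation of the group labels that can give no smaller value). The epithelial keratins KRT8 (202 to 238 FPKM) and KRT18 (260 to 296 FPKM) were high in all 9 libraries, EPCAM was at 17.3 to 23.4 FPKM and CDH1 at 3.38 to 5.02 FPKM. The prostate luminal genes KLK3, KLK2 and TMPRSS2 did not exceed 0.048 FPKM, PTPRC was listed at 0, PECAM1 reached at most 0.021 FPKM and COL1A1 0.455 FPKM. Among 8 neuronal and neuroendocrine markers, NOVA1, itself a splicing factor, was at 4.66 to 6.36 FPKM, SYP at 0.370 to 0.789 FPKM, and the other 6 did not exceed 0.083 FPKM. Depth, estimated from the confidence bounds in the tables, was 32200000 to 40260000 fragments per library.

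Most members were abundant transcripts in DU145 cells, and 15 of the 47 averaged over 100 FPKM. HNRNPK, a poly(C)-binding hnRNP, was the highest member, at 254 to 280 FPKM. HNRNPC, which binds uridine tracts, led the A/B, C and D types at 235 to 274 FPKM, while HNRNPA0 was the lowest of that group at 16.3 to 18.4 FPKM. SRSF9 led the SR proteins at 148 to 159 FPKM and SRSF8, an intronless relative of SRSF2, was the lowest of them at 9.93 to 10.5 FPKM. HNRNPH2 was the lowest of the other hnRNPs at 8.77 to 11.7 FPKM. The 3 polypyrimidine tract-binding paralogs, which repress exons next to pyrimidine-rich tracts, were unequal: PTBP1, the form outside neurons, was at 213 to 229 FPKM, and PTBP2, the neuronal form, at 1.72 to 2.20 FPKM. U2AF2, the large subunit of the factor that recognises the 3′ splice site, was at 71.5 to 80.2 FPKM and its partner U2AF1 at 16.7 to 25.2 FPKM. Among the tissue-regulated factors, MBNL1 was the highest at 38.9 to 45.6 FPKM. The 2 epithelial splicing regulatory proteins differed in level, with ESRP2 at 5.79 to 6.67 FPKM and ESRP1 at only 0.0671 to 0.188 FPKM in these keratin-positive cells. ESRP1 was under the filter of a mean of at least 1 FPKM, so 46 members were tested.

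**Figure D1:**
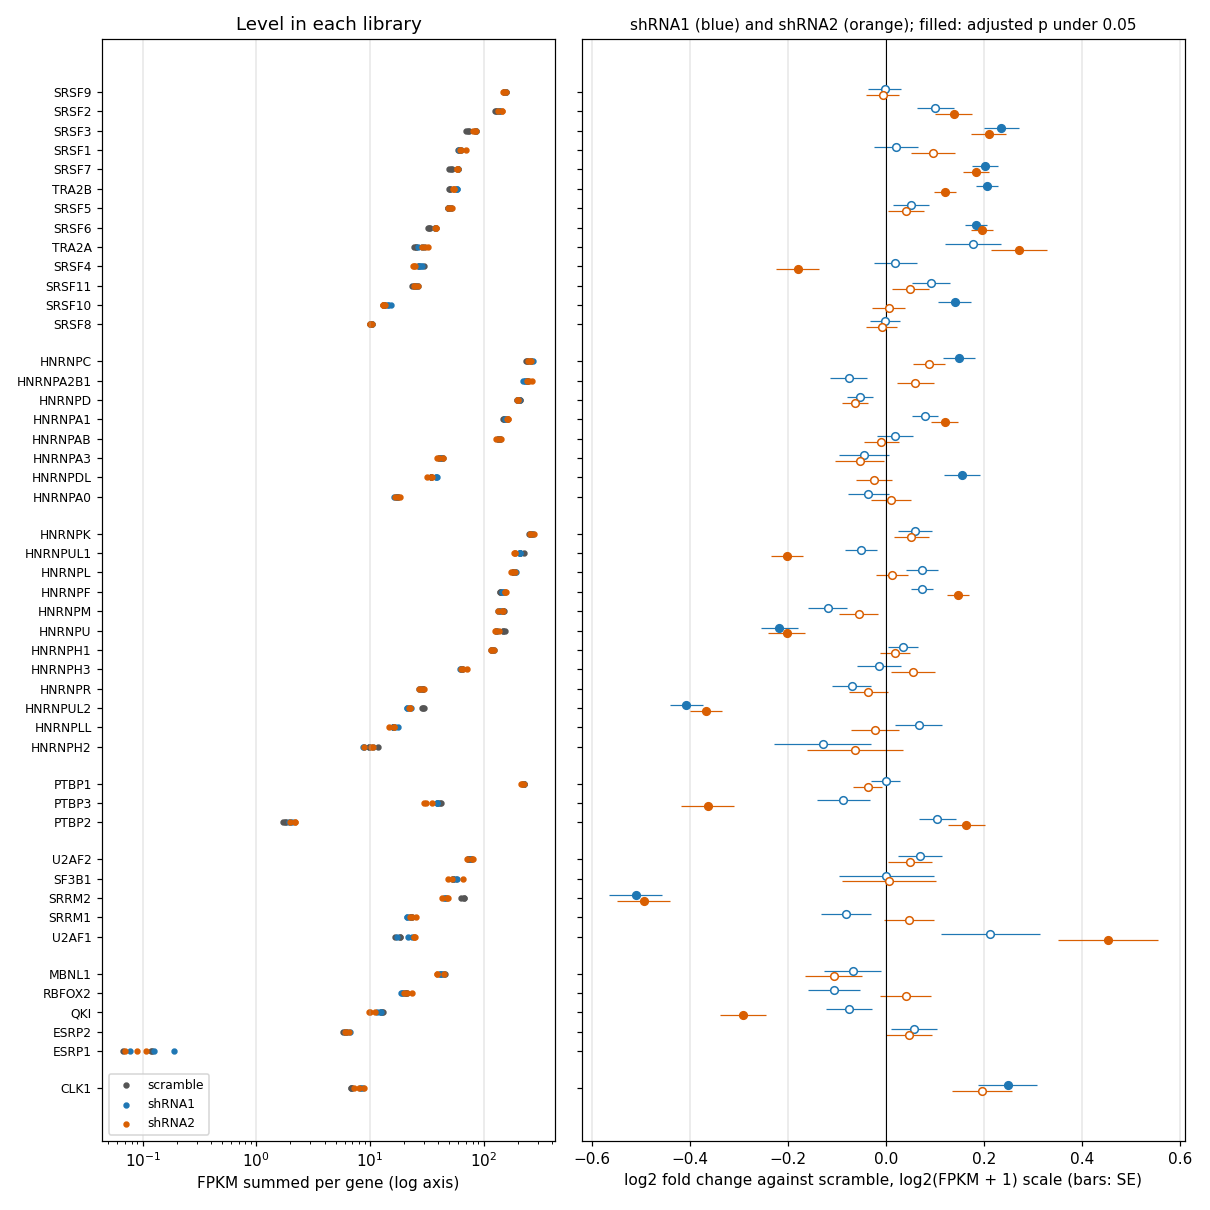
Left, FPKM of all 47 members in each of the 9 libraries on a log axis, ordered by mean level within each role group. Right, log2 fold change against scramble on the log2(FPKM + 1) scale for shRNA1 (blue) and shRNA2 (orange), with standard errors and filled symbols for limma adjusted p under 0.05; SRRM2 and HNRNPUL2 lie farthest to the left with both shRNAs, and SRSF3, SRSF6, SRSF7 and TRA2B are filled to the right with both.

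The first comparison asked which members differ between the 6 knockdown libraries and the 3 scramble libraries, by limma on log2(FPKM + 1) over 12509 genes with Benjamini-Hochberg adjustment. Knockdown cells had more RNA of 11 members and less of 3. The 11 were the SR proteins SRSF2, SRSF3, SRSF6, SRSF7, TRA2A and TRA2B, the hnRNPs HNRNPA1, HNRNPC and HNRNPF, PTBP2 and CLK1. The 3 were SRRM2, HNRNPUL2 and HNRNPU. Of all genes tested, 13.5% were called higher and 7.1% lower, against 11 and 3 of the 46 members, and the median log2 fold change was 0.02 over members and 0.03 over all genes. In these 14 members no knockdown library overlapped a scramble library, and the same held for PTBP3 and QKI, which were lower but not called. Separation of this kind was found for 16.4% of all genes upward (11 members) and 9.46% downward (5 members). In bulk libraries, a change in RNA per cell and a change in the mixture of cells cannot be told apart.

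The largest changes were losses. SRRM2 (chr16:2752638-2771412), a giant SR-related protein and scaffold of nuclear speckles, where splicing factors are stored, was at 67.6, 66.96 and 63.4 FPKM in scramble, 45.97, 46.97 and 45.1 in shRNA1 and 49.1, 48.1 and 42.8 in shRNA2. The highest knockdown library was 14.3 FPKM below the lowest scramble library (log2 fold change -0.50 ± 0.045 (SE), adjusted p = 0.000789). HNRNPUL2 (chr11:62712630-62727457), a nuclear RNA-binding protein related to HNRNPU, was at 28.8, 29.8 and 29.2 FPKM in scramble, 22.9, 21.4 and 21.3 in shRNA1 and 22.5, 22.3 and 22.6 in shRNA2. Its groups were likewise apart and its knockdown libraries lay close together (log2 fold change -0.39 ± 0.031 (SE), adjusted p = 0.00049). HNRNPU (chr1:244850297-244864543), also known as SAF-A, binds nascent RNA and chromatin and was at 155, 149 and 147 FPKM in scramble, 129, 128 and 131 in shRNA1 and 126, 138 and 129 in shRNA2. The fall was smaller (log2 fold change -0.21 ± 0.032 (SE), adjusted p = 0.0046), and with the trend of fold change on transcript length removed from each library it was -0.08 and no longer called (adjusted p = 0.177). The length taken was that of the longest annotated transcript of a gene. For HNRNPU this was 13084 bases, close to its whole locus, and it may not be the length of the mRNA measured. By the study's thresholds, p under 0.01 on log2 values and a 1.2-fold change, SRRM2 and HNRNPUL2 were the 2 members lower and 0 members were higher, against 1.78% and 1.1% of all genes. The thresholds were applied here to log2(FPKM + 1) summed per gene, which gave 223 genes lower and 138 higher. The study reports more genes in both directions, so these calls are not those of the study.

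HNRNPUL2 shares its exons with an annotated readthrough transcript, HNRNPUL2-BSCL2, listed as a gene of its own at 21.1 to 22.0 FPKM in scramble and 18.6 to 20.9 FPKM in knockdown. With both summed, the log2 fold change of HNRNPUL2 was -0.27 ± 0.024 (SE, adjusted p = 0.00079). The part played by the division of fragments between both was not tested further.

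SR proteins were the role group with the most calls, with 6 of 13 higher, 0 lower and 7 not called, beside 13.5% higher and 7.1% lower of all genes. None of the 7 had an unadjusted p under 0.05. SRSF3 (chr6:36594313-36605600), the smallest classical SR protein, which also links splicing to mRNA export, was at 70.00, 73.2 and 74.3 FPKM in scramble, 85.7, 86.2 and 84.5 in shRNA1 and 80.7, 86.7 and 84.5 in shRNA2. The lowest of the 6 knockdown values was 6.35 FPKM above the highest scramble value (log2 fold change 0.22 ± 0.031 (SE), adjusted p = 0.00346). SRSF7 (chr2:38743599-38751494), its close relative with a zinc knuckle, was at 50.2, 52.9 and 51.9 FPKM in scramble, 59.3, 60.1 and 59.1 in shRNA1 and 58.3, 59.4 and 58.7 in shRNA2. The knockdown libraries spanned 1.79 FPKM (log2 fold change 0.19 ± 0.024 (SE), adjusted p = 0.00266). SRSF6 (chr20:43457896-43464243), with 2 RNA recognition motifs, was at 33.7, 32.96 and 32.7 FPKM in scramble, 37.5, 37.7 and 38.01 in shRNA1 and 37.6, 38.2 and 38.5 in shRNA2. The standard error was the smallest among the 6 SR proteins called (log2 fold change 0.19 ± 0.022 (SE), adjusted p = 0.00214).

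TRA2A and TRA2B, the human homologs of Drosophila transformer-2, bind purine-rich enhancers and were both higher. TRA2B (chr3:185914558-185938014) was at 49.3, 50.5 and 50.6 FPKM in scramble, 58.04, 57.8 and 58.1 in shRNA1 and 53.9, 54.9 and 54.98 in shRNA2. The shRNA1 libraries were above the shRNA2 libraries, and both were above scramble (log2 fold change 0.16 ± 0.033 (SE), adjusted p = 0.0115). TRA2A (chr7:23504782-23532041) was at 25.3, 24.4 and 25.6 FPKM in scramble, 28.7, 26.6 and 30.2 in shRNA1 and 28.7, 32.5 and 30.3 in shRNA2. Its knockdown libraries were more scattered (log2 fold change 0.22 ± 0.055 (SE), adjusted p = 0.0235). SRSF2 (chr17:76734115-76737411), also known as SC35, was at 132, 127 and 128 FPKM in scramble, 138, 137 and 139 in shRNA1 and 146, 134 and 146 in shRNA2. Shift and scatter were of similar size, with the lowest knockdown library 2.43 FPKM above the highest scramble library (log2 fold change 0.12 ± 0.034 (SE), adjusted p = 0.0392). Leaving out scramble replicate 1, 2 or 3 ended the calls of TRA2A and SRSF2, and leaving out replicate 1 ended that of TRA2B.

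The other 7 SR proteins, SRSF1, SRSF4, SRSF5, SRSF8, SRSF9, SRSF10 and SRSF11, had log2 fold changes from -0.08 (SRSF4) to 0.07 (SRSF10). SRSF9, the most abundant, had -0.01 with a 95% interval of -0.07 to 0.06. With the length trend removed it was -0.10 and called lower (adjusted p = 0.0269), and SRSF2 and TRA2A lost their call. The SR proteins then had 4 higher and 1 lower, beside 6.91% and 6.74% of all genes with a length. SRSF1, a founding member of the family, had 0.06 with an interval of -0.04 to 0.16.

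CLK1 (chr2:200853009-200864658), a kinase that phosphorylates SR proteins and releases them from speckles, was at 7.03, 6.84 and 6.81 FPKM in scramble, 8.34, 8.63 and 8.14 in shRNA1 and 7.22, 8.09 and 8.86 in shRNA2. The groups did not overlap, but shRNA2 replicate 1 was only 0.195 FPKM above the highest scramble library (log2 fold change 0.22 ± 0.053 (SE), adjusted p = 0.0214). Leaving out scramble replicate 1, 2 or 3, or using coding accessions alone, ended the call. Its coding sum nevertheless averaged higher in both shRNA groups than in scramble. It was at 4.66 ± 0.970 FPKM in scramble, 5.51 ± 1.39 in shRNA1 and 7.24 ± 0.797 in shRNA2 (SD, n = 3). Among 7 other kinases of SR proteins, 6 were tested: SRPK1 was higher (26.9 FPKM in scramble and 29.5 FPKM in knockdown, log2 fold change 0.13 ± 0.030, adjusted p = 0.0208), DYRK1A was lower (6.89 and 6.18 FPKM, -0.13 ± 0.030, adjusted p = 0.0154) and the other 4 were not called. These calls were 16.7% of the kinases tested each way, beside 13.5% higher and 7.1% lower of all genes. With the length trend removed DYRK1A was at 0.03 and not called (adjusted p = 0.774).

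The hnRNPs HNRNPA1, HNRNPC and HNRNPF rose by smaller amounts at high levels. HNRNPA1 (chr12:54280726-54287087), which silences exons and binds telomeric repeats, was at 151, 149 and 150.0 FPKM in scramble, 153, 161 and 160.5 in shRNA1 and 164, 164 and 161 in shRNA2 (log2 fold change 0.10 ± 0.027 (SE), adjusted p = 0.034). HNRNPC (chr14:21209136-21269479) was at 245, 235 and 242 FPKM in scramble, 263, 264 and 274 in shRNA1 and 247, 261 and 259 in shRNA2 (log2 fold change 0.12 ± 0.034 (SE), adjusted p = 0.0397). HNRNPF (chr10:43385617-43409248), which binds runs of G, was at 140.5, 140.5 and 142 FPKM in scramble, 147, 147 and 151 in shRNA1 and 155, 157 and 156 in shRNA2 (log2 fold change 0.11 ± 0.030 (SE), adjusted p = 0.0355). The changes were 1.07-, 1.08- and 1.08-fold, and the calls were sensitive: leaving out scramble replicate 1, 2 or 3 ended all of them. From coding accessions alone HNRNPA1 was not called either. HNRNPA1 and HNRNPC have intronless copies that share their sequence, HNRNPA1L2 at 29.6 to 33.0 FPKM and HNRNPCL1 at 15.97 to 19.5 FPKM, and both members kept their call with these summed in (adjusted p = 0.0314 and 0.0469).

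PTBP2 was at 1.84, 1.78 and 1.72 FPKM in scramble, 1.96, 1.94 and 2.06 in shRNA1 and 2.20, 2.18 and 1.96 in shRNA2 (log2 fold change 0.13 ± 0.037 (SE), adjusted p = 0.034). These levels are near the bottom of the tested range, and from coding accessions alone the log2 fold change was 0.03 (adjusted p = 0.902). The remaining 32 members were not called, and for 28 of them the 95% interval of the fold change lay within 1.2-fold in either direction. The 4 whose intervals reached farther were HNRNPH2, PTBP3, QKI and U2AF1. These intervals pool both shRNAs. Within the 28, HNRNPUL1 and SRSF4 were called lower with shRNA2, and HNRNPDL and SRSF10 higher with shRNA1. Abundant members were among the 28: HNRNPK had a log2 fold change of 0.06 (interval -0.01 to 0.12), PTBP1 -0.02 (-0.08 to 0.04), HNRNPA2B1 -0.01 (-0.13 to 0.11) and HNRNPAB 0.00 (-0.07 to 0.08).

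**Figure D2:**
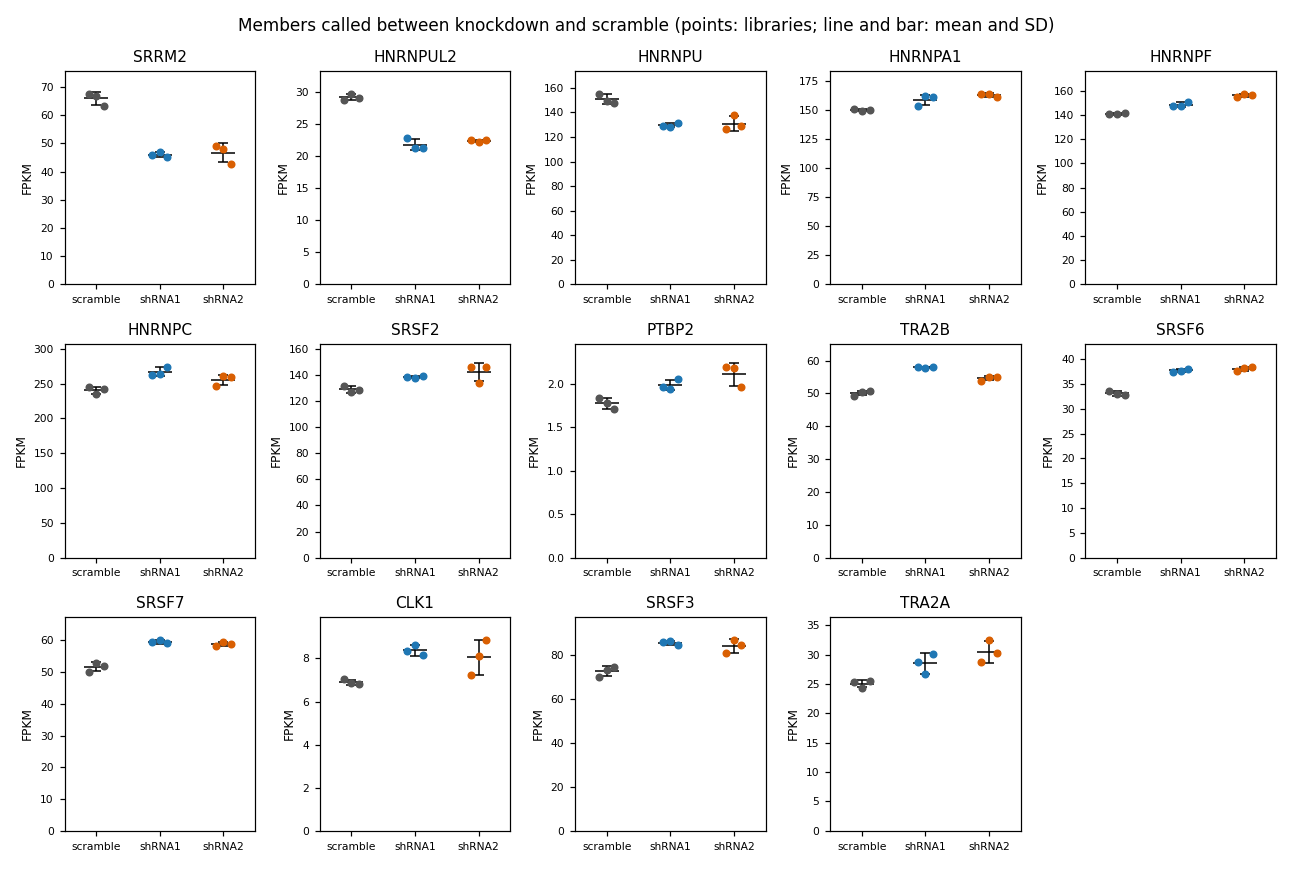
FPKM of the 14 members called between knockdown and scramble, ordered from the largest loss to the largest gain, with each library as a point and the group mean and SD as a line and bar; every axis starts at 0. SRRM2 and HNRNPUL2 show wide gaps between scramble and both shRNAs, while HNRNPA1, HNRNPF, HNRNPC and SRSF2 show shifts that are small against their level.

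Calls in this comparison rested on the 3 scramble libraries. Without scramble replicate 1, 6 members were called, without replicate 2, 7, without replicate 3, 7, and without shRNA1 replicate 3, 9. HNRNPA1, HNRNPC, HNRNPF, SRSF2, TRA2A, PTBP2 and CLK1 lost their call whichever scramble replicate was left out, and TRA2B lost it without replicate 1. SRRM2, HNRNPUL2 and SRSF7 were called under each of the gene-level alternatives fitted with limma.

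Each shRNA was then compared with scramble. The 2 comparisons share the scramble libraries, so their values are given side by side. With shRNA1, 8 members were higher (11.7% of all genes) and 3 lower (7.19% of all genes). With shRNA2, 10 were higher (15.3% of all genes) and 7 lower (11.4% of all genes). SRSF3 had log2 fold changes of 0.24 ± 0.035 with shRNA1 and 0.21 ± 0.035 with shRNA2, SRSF6 0.18 ± 0.023 and 0.20 ± 0.023, SRSF7 0.20 ± 0.027 and 0.18 ± 0.027, and TRA2B 0.21 ± 0.023 and 0.12 ± 0.023. SRRM2 had -0.51 ± 0.054 and -0.49 ± 0.054, HNRNPUL2 -0.41 ± 0.033 and -0.37 ± 0.033, and HNRNPU -0.22 ± 0.038 and -0.20 ± 0.038. These 7 passed the threshold with both shRNAs. CLK1, HNRNPC, HNRNPDL and SRSF10 passed upward with shRNA1 and not with shRNA2. HNRNPA1, HNRNPF, PTBP2, SRSF2, TRA2A and U2AF1 passed upward, and HNRNPUL1, PTBP3, QKI and SRSF4 downward, with shRNA2 and not with shRNA1. For shRNA1 the count of 11 became 7 without scramble replicate 2 or 3 or without shRNA1 replicate 1 or 3, and 17 when the shRNA2 libraries were kept out of the fit.

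Whether the 2 shRNAs differ was tested directly. 5 members were lower with shRNA2 than with shRNA1 (4.79% of all genes) and 0 were higher by limma (1.92% of all genes, 5 members at an unadjusted p under 0.05). PTBP3 (chr9:112217715-112333664), a PTB paralog, was at 39.9, 42.6 and 41.8 FPKM in scramble, 38.7, 38.8 and 39.3 in shRNA1 and 31.1, 34.9 and 30.02 in shRNA2. The shRNA1 values lay under every scramble value and the shRNA2 values under both (shRNA2 minus shRNA1, log2 difference -0.28 ± 0.055 (SE), adjusted p = 0.026). QKI (chr6:163414718-163578591), a STAR-family protein that controls splicing and circular RNA formation, was at 12.5, 12.9 and 12.9 FPKM in scramble, 12.4, 12.3 and 11.6 in shRNA1 and 10.03, 11.02 and 9.73 in shRNA2. The shRNA1 libraries were just under scramble and the shRNA2 libraries lower still (log2 difference -0.22 ± 0.047 (SE), adjusted p = 0.0367). SRSF4 (chr1:29147745-29181900), a large SR protein, was at 29.7, 26.7 and 27.2 FPKM in scramble, 28.4, 27.3 and 28.96 in shRNA1 and 24.5, 24.8 and 24.00 in shRNA2. Scramble and shRNA1 overlapped and shRNA2 was below both (log2 difference -0.20 ± 0.044 (SE), adjusted p = 0.0386). HNRNPUL1 (chr19:41262557-41307787), a relative of HNRNPUL2 that takes part in the DNA damage response, was at 226, 209.9 and 211 FPKM in scramble, 210.2, 204 and 209 in shRNA1 and 188, 185 and 188 in shRNA2. The highest of the 3 shRNA2 values lay 16.5 FPKM under the lowest of the others (log2 difference -0.15 ± 0.033 (SE), adjusted p = 0.0359). HNRNPDL (chr4:82422564-82430225), an hnRNP D relative, differed in another way, being higher than scramble with shRNA1 and near it with shRNA2, at 34.5, 34.4 and 34.5 FPKM in scramble, 38.2, 39.3 and 37.9 in shRNA1 and 32.04, 34.98 and 34.7 in shRNA2 (log2 difference -0.18 ± 0.037 (SE), adjusted p = 0.0305).

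**Figure D3:**
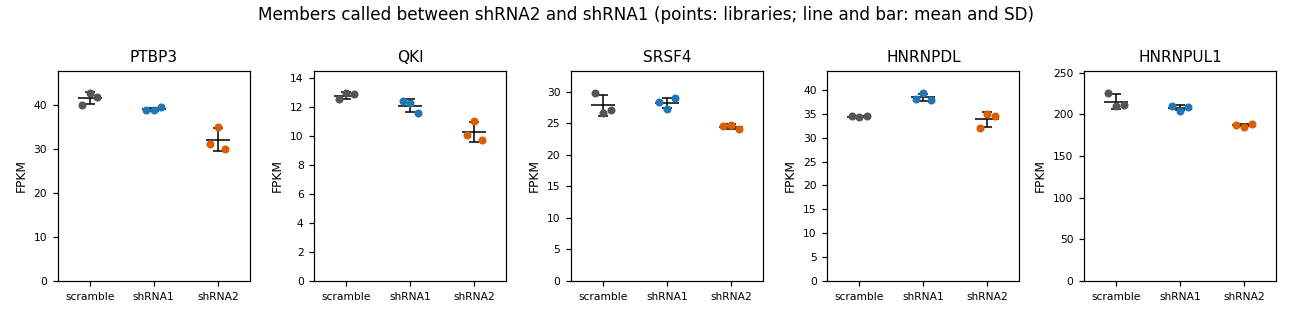
FPKM of the 5 members called between shRNA2 and shRNA1, with each library as a point and the group mean and SD as a line and bar; every axis starts at 0. PTBP3, QKI, SRSF4 and HNRNPUL1 are lowest in the shRNA2 libraries, whereas HNRNPDL is highest in the shRNA1 libraries.

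FZD6 was also lower with shRNA2 than with shRNA1 (log2 difference -0.25 ± 0.050 (SE), adjusted p = 0.0273), a call lost in 8 of 20 alternatives (adjusted p up to 0.206). The differences between shRNAs were fragile: without scramble replicate 3, or without any 1 of the shRNA1 replicates, 0 of the 5 were called (limma), without shRNA2 replicate 1 or 3, 1 was called, and without scramble replicate 1 or 2, 3 were called.

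U2AF1, the small subunit that reads the AG of the 3′ splice site, had the largest positive fold change of any member but was not called with knockdown pooled (log2 fold change 0.33 ± 0.109 (SE), adjusted p = 0.0611). It was at 18.3, 18.4 and 16.7 FPKM in scramble, 23.7, 17.3 and 21.9 in shRNA1 and 25.2, 24.5 and 24.4 in shRNA2, so that shRNA1 replicate 2 lay among the scramble libraries while the shRNA2 libraries were above all scramble libraries (shRNA2 against scramble, 0.45 ± 0.102 (SE), adjusted p = 0.016). The assembly holds 2 near-identical copies of this gene on the same chromosome, chr21:43092956-43107578 and chr21:6484623-6499256, and its values were summed over both. In scramble replicate 1 the accession NM_001025204 had 9.16 FPKM at each copy, whereas in shRNA1 replicate 2 it had 10.5 and 6.69 FPKM, so which copy the fragments came from is uncertain.

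The comparison of noncoding with coding accessions asked whether the transcript forms of a member shifted. There were 14 members that had both kinds, and in 9 of them both sums averaged at least 1 FPKM. The forms were assigned very differently among these 9. SRSF3 had 89.4% to 91.0% of its FPKM on the noncoding accession NR_036610, whose paired GENCODE transcript of 1095 bases carries the poison exon printed above and is annotated as a target of nonsense-mediated decay. It was at 62.7, 65.9 and 66.5 FPKM in scramble, 77.6, 78.5 and 76.5 in shRNA1 and 72.5, 78.3 and 76.7 in shRNA2, whereas the coding accession NM_003017, 4222 bases long, was at 7.28 to 7.84 FPKM in scramble and 7.75 to 8.34 FPKM with knockdown. In scramble replicate 1 the bounds given for NR_036610 were 59.7 to 65.7 FPKM.

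HNRNPA1 had 81.2% to 83.4% on NR_135167, paired with a transcript of 1234 bases that is also annotated for nonsense-mediated decay and has 2 exons in its 3′ part that the coding transcript lacks. CLK1 had 4.48% to 45.2%, HNRNPDL 24.9% to 35.0%, SRSF6 19.5% to 27.1%, SRSF10 7.43% to 15.5%, SRSF8 4.39% to 18.1%, SRSF2 4.50% to 6.49% and SRSF1 1.30% to 2.64%. Accessions of a gene share most of their exons and differ in length, and the authors' program divided shared fragments between them, so these shares are estimates and not counts of reads over the poison exon. The SRSF8 accessions both pair with 1 intronless transcript. Most of the noncoding FPKM of CLK1 was on NR_027855, which averaged 1.86 FPKM. It pairs with a transcript annotated as protein-coding that has no exon that the coding transcript lacks.

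No member passed the threshold for a change in its noncoding to coding ratio by limma. The counts were 0 of 9 for knockdown (0% of the 729 genes tested, with 30 genes and 0 members at an unadjusted p under 0.05), 0 of 9 for shRNA1 (0%, 32 genes and 0 members) and 0 of 9 for shRNA2 (0%, 41 genes and 1 member, CLK1). For SRSF6, NR_034009 was at 7.14, 6.42 and 7.61 FPKM in scramble, 9.72, 10.2 and 9.84 in shRNA1 and 9.69, 7.71 and 10.4 in shRNA2. The noncoding share averaged 21.3% ± 1.90 (SD, n = 3) in scramble, 26.3% ± 0.679 in shRNA1 and 24.4% ± 3.65 in shRNA2, and the log2 ratio differed by 0.32 with an interval of -0.06 to 0.70 (knockdown against scramble, adjusted p = 0.922). The noncoding share of SRSF3 was 89.7% ± 0.291, 90.7% ± 0.277 and 90.4% ± 0.417, and its log2 ratio differed by 0.14 (interval -0.13 to 0.41). HNRNPA1 differed by 0.06 (-0.23 to 0.34). SRSF2 had a noncoding share of 5.99% ± 0.556 in scramble, 6.03% ± 0.750 in shRNA1 and 4.60% ± 0.111 in shRNA2.

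CLK1 had the widest spread. Its noncoding share was 32.3% ± 14.9 in scramble, 34.1% ± 16.8 in shRNA1 and 10.1% ± 4.91 in shRNA2, with 1 scramble and 1 shRNA1 library near the highest shRNA2 values. The log2 ratio for shRNA2 against scramble was -1.98 with an interval of -3.77 to -0.20 (unadjusted p = 0.0337 in the limma fit, adjusted p = 0.76). At levels of a few FPKM, a shift of this size did not pass the threshold.

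**Figure D4:**
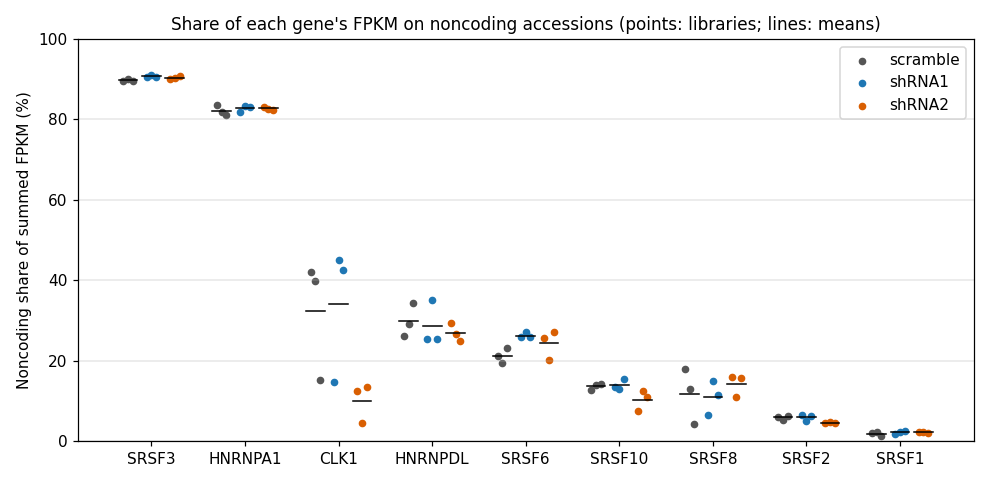
Share of summed FPKM on noncoding accessions, in percent from 0 to 100, for the 9 members in which both kinds averaged at least 1 FPKM, with each library as a point and group means as lines. SRSF3 and HNRNPA1 lie above 80% in every library of every group, and CLK1 varies most within groups.

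The accessions were also tested one by one, a choice made after the data had been seen. Among 19658 accessions, 1.26% were called in knockdown against scramble, and 3 of 130 member accessions were: NM_016333 of SRRM2 and NM_001079559 of HNRNPUL2, lower, and NR_036610 of SRSF3, higher (log2 fold change 0.24 ± 0.043 (SE), adjusted p = 0.0494). From coding accessions alone, the gene-level increase was 0.09 (adjusted p = 0.103) for SRSF3 and 0.11 (adjusted p = 0.0643) for SRSF6, so neither of these calls held without the noncoding form. HNRNPA1, CLK1 and PTBP2 also lost their knockdown calls from coding accessions alone. In CLK1, the coding accession NM_004071 had a log2 fold change of 0.41 ± 0.197 (SE, limma adjusted p = 0.327), beside 0.22 for the gene. For shRNA2 against scramble, SRSF6 kept its call from coding accessions alone (log2 fold change 0.14, adjusted p = 0.0378), and CLK1 gained one.

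Genes that work with the members were taken from lists chosen by function. Of 46 core snRNP and spliceosome proteins, 18 were higher (39.1%) and 3 lower (6.52%) with knockdown, beside 13.5% and 7.1% of all genes. Their median log2 fold change was 0.09, against 0.03 for all genes. Among the higher genes were Sm proteins, members of the ring around spliceosomal snRNAs: SNRPB, SNRPD1, SNRPD2, SNRPD3, SNRPF and SNRPG. The largest increases among these were in SNRPG (74.4 to 87.8 FPKM, group means of scramble and knockdown, log2 fold change 0.24 ± 0.043, adjusted p = 0.00804) and SNRPD1 (14.8 to 16.8 FPKM, 0.18 ± 0.036, adjusted p = 0.0115). With the length trend removed SNRPD1 was at 0.19 and kept its call (adjusted p = 0.0102). SNRPG was at 0.12 and no longer called (adjusted p = 0.0723). SNRPB, SNRPD2, SNRPD3 and SNRPF lost their calls too (adjusted p from 0.231 for SNRPF to 0.709 for SNRPD3). PRPF8, the large protein at the catalytic centre, was lower (146 to 122 FPKM, -0.26 ± 0.033, adjusted p = 0.00268), as was the helicase SNRNP200 that unwinds U4 from U6 (50.2 to 43.2 FPKM, -0.21 ± 0.038, adjusted p = 0.0083). With the length trend removed both kept their calls, PRPF8 at -0.19 (adjusted p = 0.00392) and SNRNP200 at -0.15 (adjusted p = 0.0117). Fold change fell with transcript length over all genes (Spearman rho = -0.412 across 11742 genes, which are not independent replicates), and with that trend removed the core list had 4 higher and 4 lower with a median of 0.03. By the same correction 6.91% of all genes with a length were higher and 6.74% lower, and 7 members were higher and 5 lower. Of the 14 calls, 9 remained, those of HNRNPA1, HNRNPF, HNRNPU, SRSF2 and TRA2A were lost, and HNRNPAB, HNRNPM and SRSF9 were called lower.

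Of 27 other splicing regulators tested, 4 were higher (14.8%) and 2 lower (7.41%), near the 13.5% and 7.1% of all genes. RBM39, an SR-like cofactor of U2AF, was higher (41.2 to 48.6 FPKM, 0.23 ± 0.046, adjusted p = 0.011), and SON, which shares the nuclear speckle core with SRRM2, was lower (60.7 to 52.4 FPKM, -0.21 ± 0.040, adjusted p = 0.00961), but not with the length trend removed (-0.12, adjusted p = 0.112). Of 16 proteins of nonsense-mediated decay and the exon junction complex, 2 were higher and 2 lower, 12.5% each way beside 13.5% and 7.1% of all genes. UPF1, the central helicase of decay, was lower (22.3 to 19.2 FPKM, -0.21 ± 0.034, adjusted p = 0.00572), as was the endonuclease SMG6 (7.49 to 6.37 FPKM, -0.20 ± 0.034, adjusted p = 0.00586). MAGOH (46.3 to 53.9 FPKM, 0.22 ± 0.031, adjusted p = 0.00371) and RBM8A (41.2 to 44.9 FPKM, 0.12 ± 0.023, adjusted p = 0.00961), which form a dimer in the exon junction complex, were higher. With the length trend removed MAGOH was at 0.09 and not called (adjusted p = 0.107), while RBM8A, UPF1 and SMG6 kept their calls.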

How the data were processed

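RNA from 9 DU145 libraries, 3 per group, was prepared with a kit that selects mRNA and keeps strand. The authors mapped reads with STAR and deposited FPKM per RefSeq accession from Cufflinks, with confidence bounds. Versions are not given in the sources used here. The labels name hg38 and the loci are human, although the methods name mm10. Here, accessions were paired with symbols through RefSeq (72645 of 73240, which carried 99.6% of the FPKM), FPKM was summed per gene over accessions and loci, and 42 genes with a failed or low-data status were left out. Genes averaging 1 FPKM or more over the libraries were tested as log2(FPKM + 1) with limma 3.58.1 in R 4.3.3 and called at a Benjamini-Hochberg adjusted p under 0.05 over all 12509 genes. Fold changes on that scale understate changes of low genes. Knockdown against scramble used all 9 libraries in 2 groups, and the single shRNA comparisons used all 9 in 3 groups. The ratio of noncoding to coding FPKM was tested as log2 with 0.1 FPKM added to each sum, where both averaged at least 1 FPKM. FPKM carries no read counts, so precision was taken from the libraries, and the depth given is an estimate from the Cufflinks bounds. Scripts were tested on simulated data. Named members were those called with separated groups, those called between shRNAs, and the highest and lowest of each role group. Other members are given by range or count, and U2AF1, PTBP1, HNRNPAB and the other named genes outside that rule were chosen after their values were seen. The members and lists were chosen with earlier results of these data known. Alternatives covered pseudocount, filter, scaling, transcript length, accession type, loci, replicate block and each library left out. Transcript length was that of the longest GENCODE v29 transcript of the gene, which may differ from the form measured. It was 4222 bases for SRSF3 and 4121 bases for HNRNPA1, whose FPKM was mostly on shorter forms.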

Additional observations from a re-analysis of the deposited data

Results flagged for a closer look

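The effect of knockdown differed between the 2 shRNAs in 5 members and in FZD6, by the limma test of shRNA2 against shRNA1. On the log2(FPKM + 1) scale, shRNA2 minus shRNA1 was -0.28 for PTBP3, -0.22 for QKI, -0.20 for SRSF4, -0.18 for HNRNPDL and -0.15 for HNRNPUL1, beside -0.25 for FZD6. PTBP3, QKI, SRSF4 and HNRNPUL1 passed the threshold against scramble with shRNA2 and not with shRNA1, and HNRNPDL with shRNA1 and not with shRNA2. The FZD6 difference lost its call in 8 of 20 alternatives. FZD6 itself was lower in all 3 shRNA2 libraries (7.69 to 8.79 FPKM) than in all 3 shRNA1 libraries (9.47 to 10.2 FPKM). The part of the depth of knockdown, or of other targets of either shRNA, in these differences was not tested.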

How the results depend on the processing

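Of the 14 members called between knockdown and scramble, 2 passed the study's thresholds as applied here, and leaving out 1 library at a time gave 6 to 16. For shRNA1 (11 members) coding accessions alone gave 7, a fit of only the 6 libraries compared gave 17, and leaving out 1 library gave 7 to 16. For shRNA2 against shRNA1 (5 members) quantile normalization gave 3, only the 6 libraries compared gave 2, and leaving out 1 library gave 0 to 4. The fits without a library have fewer samples. Counts for shRNA2 against scramble and the 0 ratio calls stayed within 1.5 times. HNRNPAB went from 0.00 to -0.084 (adjusted p = 0.0474) with the length trend removed. The cause was not tested in the other cases. The same replicate numbers did not pair the libraries (correlation of deviations -0.071 to 0.111), and with the number as a replicate block 10 members were called for knockdown, 11 for shRNA1, 17 for shRNA2 and 5 between shRNAs. The block ended the knockdown calls of HNRNPA1, HNRNPC, HNRNPF and PTBP2, and between shRNAs SRSF4 was lost and SRSF10 gained. For knockdown, 803 of 873 values of the 46 tested members over the alternatives kept their side of the threshold, 60 lost the call, 9 gained one and 1 reversed. Most of the 873 values belong to the 32 members not called, which cannot lose a call, so all 60 losses fell on the 14 called members. For the members called between shRNAs, 54 of 100 values kept the call and 46 lost it. These 100 values cover called members only, so the 2 shares cannot be compared. Adding HNRNPUL2-BSCL2, HNRNPA1L2 and HNRNPCL1 to their related members, tried after the data had been seen, kept all 14 calls. FPKM without counts gives no depth for single accessions, and the ratio of forms was measured with wide intervals for members at a few FPKM.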
